A study of Bos taurus with 6 samples.

Results

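Cohesin is the ring-shaped protein complex that holds sister chromatids together from DNA replication until they separate, and its RNA was followed here in the testis of immature and mature Wandong cattle, a Chinese breed of Bos taurus. The 9 genes described are the subunits with a meiotic form, SMC1B, REC8, RAD21L1 and STAG3, and the subunits of the somatic form, SMC1A, SMC3, RAD21, STAG1 and STAG2. They were taken by gene symbol from the 47249 entries of the gene table, where each symbol occurred once, so that 4 meiotic and 5 somatic subunits were found. The samples were testes of 3 calves aged 3 months (calf 1 to calf 3) and 3 andrologically mature bulls aged 3 years (bull 1 to bull 3). The animals were described as healthy, and no treatment is named. Each animal gave 1 library of ribosome-depleted total RNA. Values are FPKM, which scale the fragments of a gene to its length and to the mapped fragments of the library, so levels of different genes can be compared within a library. Group means are given ± SD over 3 animals.

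The ring of cohesin is built from an SMC1 protein, an SMC3 protein and a kleisin that closes it, and a STAG protein binds the kleisin. Dividing somatic cells and spermatogonia use SMC1A, RAD21 and either STAG1 or STAG2. In meiosis, SMC1B can take the place of SMC1A, REC8 or RAD21L1 that of RAD21, and STAG3 that of STAG1 and STAG2. SMC3 serves both forms. These meiotic complexes organise the chromosome axes on which homologous chromosomes pair, and REC8 keeps sister chromatids joined until the second meiotic division.

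The library labelled calf 3 lacked most marker genes of testis somatic cells. Of the Sertoli cell genes, it had GATA4, WT1 and FSHR at 0, with AMH at 0.340 and INHA at 0.766, and the summed FPKM of 8 Sertoli cell genes was 19.7, while it reached 1797 in calf 1 and 1475 in calf 2. SOX9, at 13.7, made up most of that sum, and INHBB, at 4.72, was higher than in the other calves. For 6 Leydig cell genes the sum was 0.466, against 1395 and 1132, and 3 of the 6 genes were listed at 0. Of 10 spermatogonial markers, DAZL was at 0, DDX4 at 0.0152 and DMRT1 at 0.0938 in calf 3, while UCHL1, ZBTB16, GFRA1 and ID4 were higher there than in any other library (201, 17.2, 6.38 and 50.2). Genes of oligodendrocytes (4 genes), astrocytes (3 genes) and neurons (3 genes) reached sums of 12032, 1637 and 458 in calf 3, and at most 9.90, 6.46 and 7.03 in any other library. The log2 fold changes below are therefore given with calf 3 and without it. The squared correlation of log2(FPKM + 1) was 0.959 between calf 1 and calf 2, at most 0.592 between calf 3 and another calf, and at least 0.937 between bulls.

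Bulls and calves also differed in the markers of germ cells and of Sertoli cells. All 10 spermatocyte markers were higher in every bull than in every calf, with sums of 28.5, 35.9 and 7.94 in calf 1 to calf 3 and of 342 to 402 in the bulls. The same held for all 8 spermatid markers, which summed to between 1.64 and 4.10 in calves and to between 13233 and 15019.5 in bulls, and for all 6 genes of dividing cells, with sums of 3.89 to 41.3 in calves and 133 to 149 in bulls. The 8 Sertoli cell genes summed to between 127 and 158 in bulls, below calf 1 and calf 2, with AMH at 736 and 483 in these calves and at most 5.19 in a bull. AMH and INHA made up most of the sums in these calves. INHBB went the other way, at 6.51, 6.99 and 7.30 in the bulls and 1.35, 3.42 and 4.72 in calf 1 to calf 3. The 6 Leydig cell genes summed to between 1477 and 2744 in bulls. Of the 10 spermatogonial markers, 5 were higher and 4 lower in all bulls than in all calves. Among all genes tested, 46.1% were higher and 21.3% lower in every bull than in every calf. Median FPKM of the genes tested was 4.40 to 4.60 in calves and 6.45 to 6.91 in bulls. In RNA of whole tissue, fewer cells of a type and less RNA in each cell cannot be told apart, so the values below describe the tissue. The part of these shifts in the results was not tested.

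STAG3, the meiotic partner of the kleisins, had the highest level among the 9 subunits in bulls. Its FPKM was 105, 86.4 and 94.1 in bull 1 to bull 3, and 3.52, 5.19 and 2.35 in calf 1 to calf 3. All bulls lay far above all calves. The bulls' mean of 95.1 ± 9.28 was 25.8-fold the calves' mean of 3.69 ± 1.42 (SD, n = 3 each). The test was a linear model on log2(FPKM + 1), fitted with limma over 18115 genes that reached an FPKM of 1 in 3 or more libraries. Its log2 fold change (log2FC, bulls minus calves) for STAG3 was 4.40 with a standard error (SE) of 0.25 and an adjusted p of 4.13e-05, and 4.18 without calf 3 (SE 0.17, adjusted p = 5.1e-06). Genes with an adjusted p under 0.05 that also differed by a log2FC of 1 or more in either direction were called, and STAG3 was called higher in both fits. The gene lies on chromosome 25, from 36205145 to 36235822 (ENSBTAG00000010496).

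SMC1B, the meiotic SMC1 protein, was next to STAG3 in mean level in bulls. The gene entry of RAD21 stood above it in bull 3 (34.9), but the main transcript of RAD21 alone, at 31.8, did not. SMC1B had an FPKM of 38.6, 49.9 and 32.5 in bull 1 to bull 3. Calf 1 had 4.83, calf 2 had 6.15, and the gene was listed at 0 in calf 3. Even the lowest bull was well above the highest calf. The bulls' mean of 40.4 ± 8.84 was 7.35-fold that of calf 1 and calf 2. With calf 3 the log2FC was 3.56 (SE 0.76, adjusted p = 0.0087). Without calf 3 it was smaller, with a smaller error (2.66, SE 0.20, adjusted p = 6.82e-05), and SMC1B was called higher either way. SMC1B (ENSBTAG00000024132) lies on chromosome 5, from 115736399 to 115818135.

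RAD21L1, a kleisin found in early meiotic prophase, was called higher in bulls as well, at a lower level. Its FPKM was 11.2, 13.5 and 10.1 in the bulls and 1.64, 4.19 and 0.375 in calf 1 to calf 3. The calves spread widely, and calf 2 lay closest to the bulls. The bulls' mean of 11.6 ± 1.74 was 3.99-fold that of calf 1 and calf 2. RAD21L1 had a log2FC of 2.24 (SE 0.49, adjusted p = 0.00912), or 1.76 when calf 3 was left out (SE 0.30, adjusted p = 0.00214). RAD21L1 (ENSBTAG00000001376) lies on chromosome 13, from 59870318 to 59906468.

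REC8, the kleisin that carries cohesion through the first division, had the lowest level of the 9 subunits in bulls. The bulls had an FPKM of 1.81, 1.68 and 1.98, and the calves had 0.490, 0.584 and 0.662. The groups did not overlap, and calf 3 was the highest calf. The bulls averaged 1.82 ± 0.151 and the calves 0.579 ± 0.0861, which is 3.15-fold apart. On the log2(FPKM + 1) scale, which understates changes of low genes, the log2FC was 0.84 (SE 0.11, adjusted p = 0.00125) and 0.88 without calf 3 (adjusted p = 0.0011). It passed the adjusted p but not the size required, so REC8 was not called. With 0.1 in place of 1 added to the FPKM, the log2FC was 1.51 (adjusted p = 0.00217), and the gene was called. REC8 was the only 1 of the 9 subunits that passed the filter on low values through the bulls alone. SMC1B and RAD21L1 reached an FPKM of 1 in calf 1 and calf 2 but not in calf 3, so the calves alone would not have passed them. REC8 (ENSBTAG00000002705) lies on chromosome 10, from 20976598 to 20982410.

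**Figure D1:**
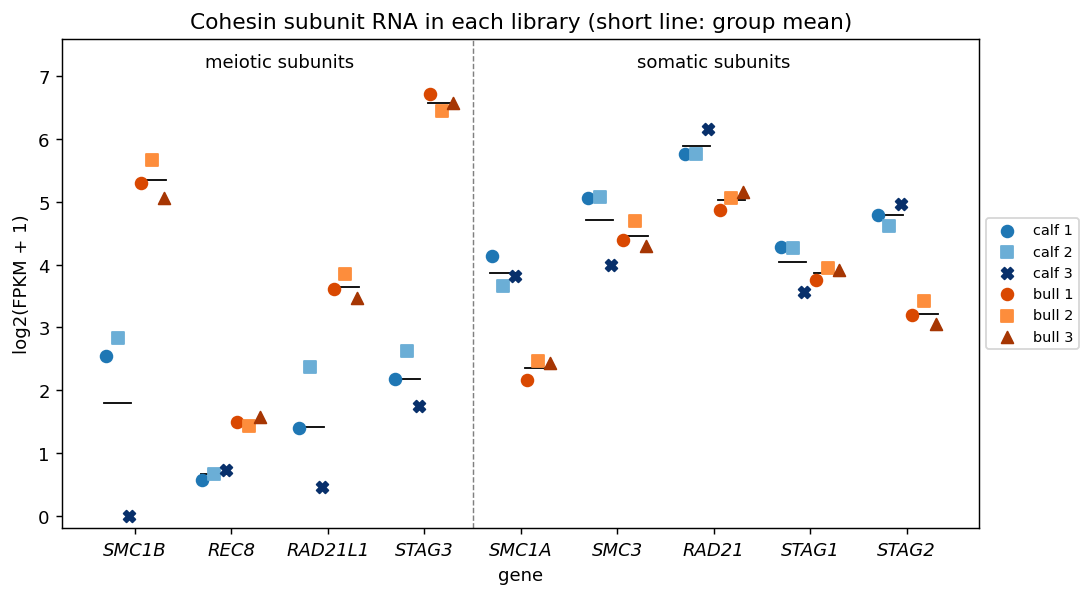
The vertical axis gives log2(FPKM + 1) of each cohesin subunit gene on the horizontal axis, with 1 point for each library and a short line at the mean of the 3 calves or the 3 bulls. All bulls lie above all calves for the 4 meiotic subunits and below them for SMC1A, RAD21 and STAG2. Calf 3 is the lowest library for SMC1B, RAD21L1, STAG3, SMC3 and STAG1.

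The somatic subunits did not follow the meiotic ones. SMC1A, whose place SMC1B can take in meiosis, had an FPKM of 3.45, 4.51 and 4.38 in the bulls. It was at 16.6, 11.6 and 13.2 in calf 1 to calf 3. Every bull was below every calf. The calves averaged 13.8 ± 2.57, which is 3.35-fold the bulls' mean of 4.12 ± 0.576. SMC1A was called lower with a log2FC of −1.52 (SE 0.20, adjusted p = 0.00107), and also without calf 3 (−1.55, adjusted p = 0.000555). SMC1A (ENSBTAG00000017761) lies on chromosome X, from 90821253 to 90855974.

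STAG2, the more abundant somatic STAG gene in calves, gave a like difference. Its FPKM was 8.16, 9.71 and 7.26 in the bulls and 26.7, 23.7 and 30.3 in calf 1 to calf 3. Even the lowest calf lay well above the highest bull. The calves averaged 26.9 ± 3.30 and the bulls 8.38 ± 1.24. STAG2 was called lower with a log2FC of −1.57 (SE 0.18, adjusted p = 0.000548), and with −1.49 without calf 3 (adjusted p = 0.00021). STAG2 (ENSBTAG00000009121) is also X-linked, from 8278461 to 8408287.

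RAD21, the somatic kleisin, had the highest level of the 9 subunits in each calf. Its FPKM was 53.3, 53.4 and 70.4 in calf 1 to calf 3, and 28.2, 32.4 and 34.9 in the bulls. The groups did not overlap, and calf 3 lay farthest from the bulls. The calves averaged 59.0 ± 9.86 and the bulls 31.8 ± 3.38. Both the log2FC of −0.86 (SE 0.18, adjusted p = 0.00777) and that of −0.73 without calf 3 (adjusted p = 0.00164) were under the size required for a call. RAD21 (ENSBTAG00000007303) lies on chromosome 14 and its entry runs from 47353483 to 47526090.

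SMC3, the subunit that both forms share, had an FPKM of 20.1, 25.0 and 18.6 in the bulls. It was 32.4 in calf 1, 32.7 in calf 2 and 14.9 in calf 3. The bulls lay between calf 3 and the other calves. SMC3 had a log2FC of −0.25 (95% interval −1.06 to 0.57, adjusted p = 0.56) with calf 3, and −0.60 (−0.96 to −0.25, adjusted p = 0.00899) without it. STAG1, the other somatic STAG gene, had a similar order. It was at 12.5, 14.3 and 14.2 in the bulls, at 18.5 in calf 1, 18.2 in calf 2 and 10.8 in calf 3. Its log2FC was −0.17 (95% interval −0.75 to 0.42, adjusted p = 0.58) with calf 3, and −0.40 (−0.68 to −0.13, adjusted p = 0.0168) without it. Without calf 3 both intervals were narrower. For both genes the difference without calf 3 passed the adjusted p but was under the size required. SMC3 (ENSBTAG00000013905) lies on chromosome 26, from 31124223 to 31163013, and STAG1 (ENSBTAG00000035437) on chromosome 1, from 132757274 to 132925161.

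In total, 3 of the 4 meiotic subunits were called higher in bulls and none lower, where 35.7% of all genes tested (6474) were called higher and 9.61% (1741) lower. After quantile normalization, which gives all libraries 1 distribution of values, these shares were 21.1% and 25.1%. Of the 5 somatic subunits, 2 were called lower and none higher. Values did not overlap between the groups for the 4 meiotic subunits, all higher in bulls, of which REC8 had been tested only through its level in bulls, which was the case for 46.1% of the genes tested (53.5% without calf 3). They did not overlap, with the bulls lower, for 3 of 5 somatic subunits, against 21.3% of the genes tested. Without calf 3 the calls were again 3 and 2, beside 37.9% of all genes called higher and 13.6% called lower, and all 5 somatic subunits were then lower in every bull than in both calves, as were 30.9% of the genes tested. The median log2FC was 2.90 over the meiotic subunits, −0.86 over the somatic subunits and 0.43 over all genes tested. Without calf 3 these medians were 2.21, −0.73 and 0.43.

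How the libraries were scaled moved these values. After quantile normalization without calf 3, the median over all genes moved from 0.43 to −0.24, and 22.4% of the genes were called higher in bulls and 29.1% lower. STAG3, SMC1B and RAD21L1 stayed called higher, with log2FC of 3.54, 2.04 and 1.20, and REC8 had −0.14 (adjusted p = 0.318). All 5 somatic subunits were then called lower, from −1.07 for STAG1 and −1.35 for SMC3 to −2.17 for STAG2 and −2.19 for SMC1A, with RAD21 at −1.51. In all of these fits the 5 somatic subunits lay below the median of all genes, and STAG3, SMC1B and RAD21L1 lay above it.

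**Figure D2:**
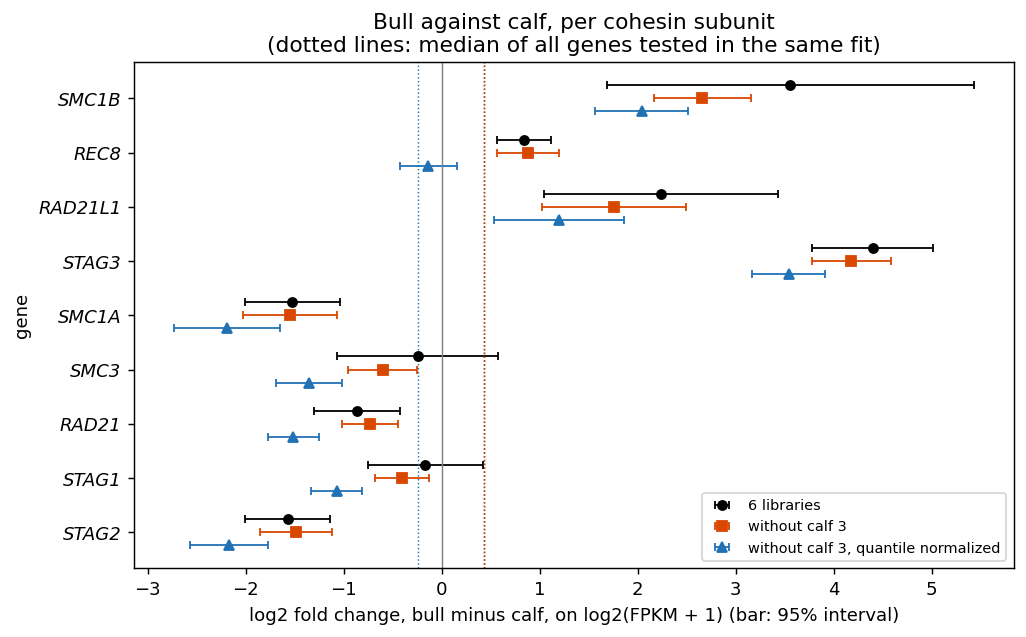
The horizontal axis gives the log2 fold change of bulls over calves on the log2(FPKM + 1) scale for each cohesin subunit on the vertical axis, with 95% intervals, in the fit of 6 libraries (circles), without calf 3 (squares) and without calf 3 after quantile normalization (triangles). Dotted lines mark the median of all genes tested in each fit (0.43, 0.43 and −0.24). STAG3, SMC1B and RAD21L1 lie to the right of these medians and the 5 somatic subunits to the left. REC8 also lies to the right, but its interval spans the median after quantile normalization.

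A share of 1 paralog among those that fill the same place in the ring does not change when a library is multiplied by a factor, so shares were computed within each library, as a description with no test. Shares after quantile normalization were not computed. SMC1B made up 91.8%, 91.7% and 88.1% of the summed FPKM of SMC1A and SMC1B in bull 1 to bull 3. The share was 22.5% in calf 1, 34.7% in calf 2 and 0 in calf 3, where SMC1B was listed at 0. SMC1B was thus the main SMC1 gene in every bull and SMC1A in every calf.

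The STAG genes gave the same turnover. STAG3 made up 83.6%, 78.2% and 81.5% of the summed STAG genes in the bulls, and 7.22%, 11.0% and 5.42% in calf 1 to calf 3. STAG2 held 54.8%, 50.2% and 69.7% in the calves and 6.50%, 8.79% and 6.29% in the bulls. STAG1 was below STAG2 in every calf, at 0.693, 0.771 and 0.358 of its level, and above it in every bull, at 1.53, 1.48 and 1.95 times its level.

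At the kleisin place the somatic gene stayed ahead in all 6 libraries. RAD21 made up 68.4%, 68.1% and 74.3% of the summed kleisins in the bulls and 96.2%, 91.8% and 98.5% in calf 1 to calf 3. RAD21L1 took 27.3%, 28.4% and 21.5% in the bulls, against 2.96%, 7.20% and 0.525% in the calves. REC8 took 4.38%, 3.53% and 4.22% in the bulls, and from 0.884% to 1.0% in the calves. The meiotic kleisins did not overlap between the groups in share, but neither passed RAD21 in any library.

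**Figure D3:**
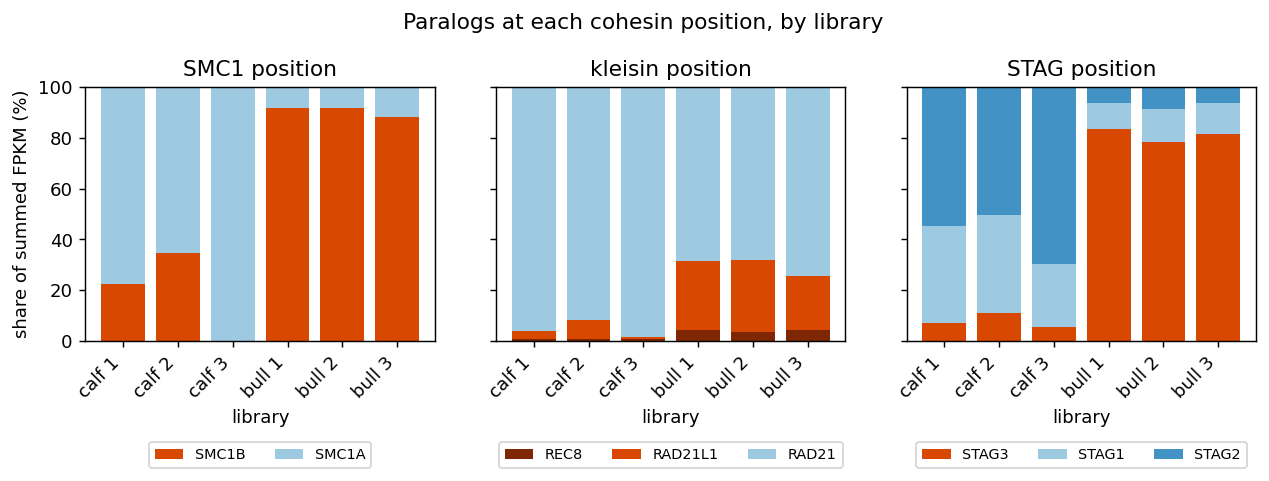
Each bar is 1 library and stacks the shares, in percent of their summed FPKM, of the genes that fill the SMC1, kleisin or STAG position of cohesin, with meiotic genes in orange and brown and somatic genes in blue. Meiotic genes hold 88.1% to 91.8% of the SMC1 position and 78.2% to 83.6% of the STAG position in bulls, while RAD21 holds at least 68.1% of the kleisin position in every library.

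Summed by place in the ring, the levels moved apart. The SMC1 genes together had an FPKM of 42.1, 54.4 and 36.9 in the bulls and 21.4, 17.7 and 13.2 in calf 1 to calf 3, and the STAG genes together had 126, 110 and 115 in the bulls against 48.7, 47.1 and 43.4. The kleisins together were lower in every bull (41.2, 47.6 and 46.9) than in any calf (55.4, 58.2 and 71.4). SMC3, the subunit with no meiotic form, stood at 21.2 ± 3.35 (SD, n = 3) in bulls. These sums are descriptions of RNA in the tissue and were not tested.

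The order of the 9 subunits differed between the ages. In bulls it ran STAG3, SMC1B, RAD21, SMC3, STAG1, RAD21L1, STAG2, SMC1A and REC8. The ranges over the 3 bulls overlapped only between the neighbours SMC1B and RAD21 and between STAG1 and RAD21L1. The main transcript of RAD21 alone was at most 31.8 in a bull, below SMC1B, which was at least 32.5. In calf 1 and calf 2 the order was RAD21, SMC3, STAG2, STAG1, SMC1A, SMC1B, STAG3, RAD21L1 and REC8, so that each somatic subunit stood above each meiotic one. Among these, SMC1B, STAG3 and RAD21L1 were neighbours whose ranges overlapped. In calf 3 the somatic subunits also came before the meiotic ones, with STAG3 highest among the latter.

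The meiotic subunits were above 0 in calf 1 and calf 2, and some of their ratios differed from those of the bulls. STAG3 was 0.729 and 0.843 times as high as SMC1B in calf 1 and calf 2, but 2.71, 1.73 and 2.89 times as high in the bulls. STAG3 was 2.15 and 1.24 times as high as RAD21L1 in these calves, and 9.33, 6.40 and 9.33 times in the bulls. SMC1B over RAD21L1 was 2.95 and 1.47 in the calves and 3.44, 3.70 and 3.22 in the bulls. RAD21L1 over REC8 overlapped between the ages, at 3.34 and 7.17 in these calves and 6.23, 8.03 and 5.09 in the bulls. Spermatocyte markers were also above 0 in these calves, with SYCP1, a protein of the synaptonemal complex, at 4.74 and 8.55 against 16.6 to 22.2 in bulls, and HORMAD1, a protein of the chromosome axis, at 2.69 and 4.18 against 56.8 to 71.1.

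The table of transcripts holds 18 entries for the 9 genes, of which 14 have an Ensembl identifier and 4 were assembled from the reads. Of the 12 entries that passed the filter on low values, 3 were called higher in bulls and 3 lower, where 34.8% of all transcripts tested were called higher and 9.37% lower. The counts were the same without calf 3, beside 36.1% called higher and 13.1% called lower. SMC1B, REC8 and RAD21L1 have 1 entry each, which carries the value of the gene.

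STAG3 has 3 Ensembl entries, and calf 3 differed from the other libraries in which of them held its FPKM. STAG3-203 (ENSBTAT00000079103) made up 100% and 97.9% of the gene in calf 1 and calf 2 and 97.7%, 97.3% and 99.6% in the bulls, but 16.6% in calf 3. In that library the entry ENSBTAT00000075670 held 46.2% and ENSBTAT00000013879 held 37.2%. The FPKM of STAG3-203 was 3.52, 5.08 and 0.391 in calf 1 to calf 3 and 102, 84.1 and 93.7 in the bulls, which gave a log2FC of 4.80 (SE 0.55, adjusted p = 0.000689). Without calf 3 it was 4.17 (adjusted p = 3.11e-05).

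Both entries of STAG2 were called lower in bulls. The entry ENSBTAT00000070802, which held 72.3% to 87.8% of the gene in each library, had a log2FC of −1.46 (adjusted p = 0.000933), and −1.42 without calf 3. The entry ENSBTAT00000012029 had −1.53 (adjusted p = 0.00528), and −1.32 without calf 3. SMC1A-201 (ENSBTAT00000023619) held at least 92.3% of SMC1A in each library and was called lower as well, with −1.49 (adjusted p = 0.00132), and −1.53 without calf 3.

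RAD21 is drawn wide in the gene table by 3 assembled entries that reach beyond RAD21-201 (ENSBTAT00000009607), which spans 47398425 to 47427803. RAD21-201 held 99.6% to 99.7% of the FPKM in calves and 95.8%, 95.7% and 91.2% in the bulls. An assembled entry named RAD21-AS2 was at 1.1, 0.501 and 1.72 in the bulls and between 0.142 and 0.213 in the calves, but it did not pass the filter. The library kit marks strand, yet the sources do not say whether strand was used for these values, so reads of RAD21 and of its antisense entries may not have been told apart. RAD21-201 alone had a log2FC of −0.94 (adjusted p = 0.00604), or −0.81 without calf 3. STAG1 also has an assembled entry, and STAG1-201 (ENSBTAT00000049932) held 75.1% to 77.2% of that gene in calves and 80.1% to 81.0% in bulls.

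The 2 members called lower, SMC1A and STAG2, are also the 2 members on chromosome X. Of the 664 X-linked genes tested, 30.3% were called lower in bulls and 22.7% higher, against 8.92% and 36% of the 17173 genes on chromosomes 1 to 29. Without calf 3, 31.5% of the X-linked genes were called lower, against 13% on chromosomes 1 to 29. None of the 7 subunits on chromosomes 1 to 29 was called lower in either fit. After quantile normalization without calf 3, RAD21, SMC3 and STAG1 were called lower as well, beside 52.7% of the X-linked genes and 28.4% of those on chromosomes 1 to 29. The shares called higher were then 16.1% and 22.5%. The comparison by chromosome was chosen after the values of the members had been seen, and it is a description.

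Neighbours of the members were looked up within 15000 bases. Both SMC1 genes have a RIBC gene at one end, which encodes an inner protein of the microtubules of the sperm tail. RIBC2 lies 161 bases from SMC1B and had an FPKM of 55.4, 67.9 and 40.2 in the bulls and at most 0.0543 in a calf. RIBC1 overlaps SMC1A by 268 bases and had 10.7, 13.9 and 16.1 in the bulls and 0.582, 0.328 and 0.290 in the calves. RIBC1 was called higher (log2FC 3.37, adjusted p = 5.86e-05, and 3.31 without calf 3) while SMC1A was called lower, and RIBC2 was called higher (5.72, adjusted p = 1.2e-05, and 5.72 without calf 3) together with SMC1B. IPO4, an importin whose gene lies 7 bases from REC8, was at 63.6, 63.5 and 54.6 in the bulls, far above REC8 itself, and at 10.3, 11.0 and 2.97 in calf 1 to calf 3. GPC2 overlaps STAG3 by 1020 bases and was at 3.23 to 3.74 in the bulls and at most 0.588 in a calf. It was called higher (log2FC 1.60, adjusted p = 0.000202, and 1.64 without calf 3). STAG1 has an unnamed Ensembl gene beside it (ENSBTAG00000054797), which was at 17.0, 16.0 and 11.8 in calf 1 to calf 3 and at 10.8, 12.8 and 11.6 in the bulls. Whether that entry belongs to STAG1 was not tested, and it was left out of the STAG sums. Reads that fall where genes overlap cannot be assigned to 1 gene without strand. FAM118A, near SMC1B, and MAP11, near STAG3, were called higher as well (log2FC 2.82 and 2.53, and 2.52 and 2.66 without calf 3). Of all genes tested, 35.7% were called higher, and 37.9% without calf 3. Some other neighbours were lower in bulls. HSD17B10, near SMC1A, was called lower (log2FC −1.19, adjusted p = 0.00677, and −1.36 without calf 3). Near REC8, IRF9 and PSME2 were called lower only without calf 3 (−1.92 and −1.38). The neighbours described were picked after their values had been seen.

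Cohesin is loaded, acetylated, protected and cut by a set of regulators, and 16 of the 17 listed were found in the gene table. Of these, 8 were called higher in bulls and none lower, beside 35.7% and 9.61% of all genes. The counts were the same without calf 3, beside 37.9% and 13.6%. The largest differences were those of PTTG1, CDCA5, PLK1 and ESPL1, all of which are active around cell division. PTTG1, the securin that blocks separase, was at 108, 130 and 95.1 in the bulls and 6.33, 4.25 and 0.196 in calf 1 to calf 3 (log2FC 4.95, adjusted p = 0.00131, and 4.16 without calf 3). CDCA5, or sororin, which stabilises cohesin on DNA, was at 37.7, 31.5 and 36.7 in the bulls and 2.19, 2.47 and 0.855 in the calves (3.72, adjusted p = 0.000107, and 3.44 without calf 3). PLK1, a kinase that promotes the removal of cohesin, and ESPL1, the separase that cuts the kleisin, had log2FC of 3.11 and 2.63 (adjusted p = 0.000234 and 0.000894), and of 2.87 and 2.29 without calf 3.

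The other 4 regulators called higher were SGO2, which protects centromeric cohesin in meiosis, CTCFL, the germline paralog of CTCF, WAPL, which opens the ring, and ESCO1, which acetylates SMC3. Their log2FC were 1.65, 1.74, 1.19 and 1.04, and 1.43, 1.44, 1.06 and 1.16 without calf 3. The call of ESCO1 was lost without calf 1 (0.99), without calf 2 (0.98) and without bull 2 (0.96). CTCFL was at 4.02, 4.06 and 4.63 in the bulls and 0.739, 1.12 and 0.0393 in calf 1 to calf 3, whereas CTCF, which stops cohesin at loop boundaries, averaged 9.71 ± 0.281 in the bulls and 18.9 ± 2.22 in the calves. CTCF was under the size required for a call (log2FC −0.89, adjusted p = 0.00335, and −0.98 without calf 3). The loader NIPBL had a log2FC of −0.10 (adjusted p = 0.618, and −0.04 without calf 3), and its partner MAU2 had −0.46 (adjusted p = 0.0339, and −0.42 without calf 3). After quantile normalization without calf 3, the calls were 4 higher (PTTG1, CDCA5, PLK1 and ESPL1) and 4 lower (CTCF, PDS5A, HDAC8 and MAU2), beside 22.4% and 29.1% of all genes.

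The other SMC complexes were read in the same fit. Condensin compacts chromosomes before division, and 5 of its 8 genes were called higher in bulls and none lower, also without calf 3, beside 35.7% of all genes called higher, or 37.9% without calf 3. After quantile normalization without calf 3, NCAPD3, NCAPG2 and NCAPH were called higher, beside 22.4% of all genes. NCAPH, NCAPG2, NCAPD3 and NCAPG had log2FC of 2.44, 2.17, 1.99 and 1.96, with SMC4 at 1.69, while its SMC partner SMC2 had −0.02 (adjusted p = 0.95). Without calf 3 these values were 1.90, 1.94, 1.97, 1.26, 1.37 and −0.25, in the same order. NCAPG was at 12.9, 11.1 and 2.03 in calf 1 to calf 3. It had an adjusted p of 0.0321, and lost its call without bull 1, bull 2 or bull 3 in turn (adjusted p = 0.097, 0.101 and 0.0822), but kept it without calf 3 (1.26, adjusted p = 0.000326). Of the SMC5/6 complex, which acts in DNA repair, 7 of 9 genes were found and 2 were called higher, a share below the 35.7% of all genes. These were SMC6 (1.30, adjusted p = 0.0242) and NSMCE1 (1.16, adjusted p = 0.0342), and neither was called without calf 3 (0.91 and 0.76) or without any 1 of the bulls. After quantile normalization neither was called, and NSMCE4A was called lower (−1.09, and −1.23 without calf 3). The median log2FC was 1.12 over the regulators, 1.82 over condensin and 0.69 over SMC5/6, beside 0.43 over all genes. Without calf 3 these medians were 0.82, 1.31 and 0.75, beside 0.43. After quantile normalization without calf 3 they were 0.18, 0.63 and −0.06, beside −0.24.

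**Figure D4:**
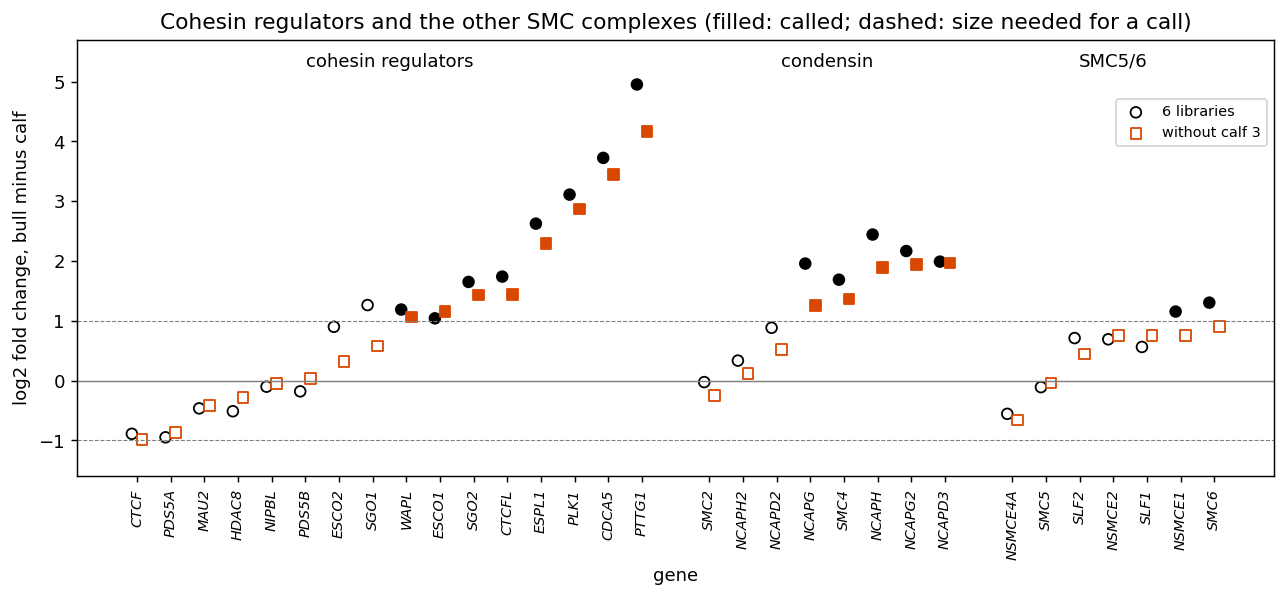
The vertical axis gives the log2 fold change of bulls over calves for each gene of 3 lists on the horizontal axis, in the fit of 6 libraries (circles) and without calf 3 (squares), filled where the gene was called. Filled symbols lie above 1, and none below −1. PTTG1 stands highest at 4.95 and 4.16, and the circles but not the squares of SMC6 and NSMCE1 are filled.

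For each meiotic subunit, the 3 named genes with the nearest profile were taken from 13392 candidates by Euclidean distance of log2(FPKM + 1) over the 6 libraries, as a description. SMC1B lay nearest to RBM44 (distance 0.554), ADAD2 (0.599) and KIF15 (0.629). In calf 3, ADAD2 was also listed at 0, RBM44 was at 0.053 and KIF15 at 0.155. Calf 3 thus entered the choice of these genes, and no distances without it are given. STAG3 lay nearest to AGPAT2 (0.442), EPCAM (0.480) and RABEPK (0.514), and RAD21L1 to ENTHD1 (0.701), ENKD1 (0.717) and DNLZ (0.785). REC8 lay nearest to SKIDA1 (0.185), PAX5 (0.253) and ESRRB (0.269), all of them between 1.55 and 2.36 in the bulls. None of the meiotic subunits was among the 3 nearest genes of another. The distance counts differences in level, and STAG3, SMC1B, RAD21L1 and REC8 had bull means of 95.1, 40.4, 11.6 and 1.82. It therefore cannot show whether their profiles differ in shape.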

How the data were processed

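Total RNA of testis was depleted of ribosomal RNA and sequenced from 3 calves and 3 bulls. Per the methods of the study, the authors removed ribosomal reads with Bowtie2, mapped with TopHat2 and assembled with StringTie. The authors deposited FPKM values of genes and of transcripts for each library. The methods name Cuffdiff and Ballgown for circular RNAs, and the tool that made the gene and transcript values is not given in the sources used here. Depth is not known from the tables: among genes below an FPKM of 0.05 in calf 1 and another library, at most 3.60% shared the commonest ratio (to within 0.01 on a natural log scale), so counts were not recovered and no counting interval was computed. The 6 animals are separate. No gene sequences were used here. The methods name the assembly UMD 3.1.1, but 1050 entries lie on scaffolds of an ARS-UCD assembly, and 99.75% of 16298 symbols, with all 9 members, fell on the locus of the same symbol in the RefSeq table of ARS-UCD2.0. Positions are printed as the gene table gives them.

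Values were taken as log2(FPKM + 1). Features that reached an FPKM of 1 in 3 or more of the 6 libraries (18115 genes, 23212 transcripts) were tested with limma 3.58.1 in R 4.3.3 (two-sided, mean-variance trend), with the Benjamini-Hochberg adjustment over every feature tested. Calls required an adjusted p under 0.05 together with a log2FC of 1 or more in either direction. On simulated data with 200 of the genes changed by a log2FC of 2, 179 were recovered with 2 false calls, and 167 with 6 false calls without calf 3. For transcripts these numbers were 158 and 5. The simulated means and spreads came from calf 1, calf 2 and the bulls, so the spread that calf 3 adds was left out. Far fewer genes were changed than the 8215 called in the fit of 6 libraries. The simulation therefore does not give the error rate of that fit. An exact permutation test of 3 against 3 cannot go below p = 0.1 and was not used. Alternatives were another pseudocount, no filter, quantile normalization, an equal sum over named genes, array weights, no trend, a replicate block and leaving out each library. The members and all lists were chosen with earlier results of these data known. All 9 members were named, and of each other list the called genes with the largest differences, up to 4 in each direction, plus those needed to describe the complex or chosen after their values had been seen. MEIKIN, NSMCE3 and EID3 were not found by symbol.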

Additional observations from a re-analysis of the deposited data

How the results depend on the processing

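The calls of SMC1B, RAD21L1, STAG3, SMC1A and STAG2 kept their direction and their side of the threshold under all 15 alternatives. REC8 was called with a pseudocount of 0.1 (1.51), and its sign turned after quantile normalization (−0.24, and −0.14 without calf 3). RAD21 was called lower after quantile normalization (−1.64, and −1.51 without calf 3) and with an equal sum over named genes (−1.12). SMC3 (−1.35) and STAG1 (−1.07) were called lower only after quantile normalization without calf 3, an alternative added after seeing the data, which called 5 somatic subunits, 3 condensin genes and 1 SMC5/6 gene. SMC5/6 calls numbered 1 without the filter, after quantile normalization and with an equal sum, 0 with array weights, 0 with the filter on the 5 libraries other than calf 3, and 0 to 2 with 1 library left out. The gene called after quantile normalization, with and without calf 3, was NSMCE4A, called lower. The median over all genes was 0.43, −0.26 after quantile normalization and 0.22 with an equal sum. The number of genes called ranged from 7318 to 9325 with 1 library left out.

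Calves and bulls share replicate numbers in the labels, and whether any of these animals were related is not stated. Same-numbered animals were not treated as pairs. Their deviations from their group means correlated at 0.028, 0.025 and 0.034, below the cut of 0.1 set for pairs. Each calf nevertheless correlated best with the bull of its own number. With the replicate number as a block, 8128 genes were called, against 8215 without it, and no call among the 9 subunits or the other lists changed. The difference in SMC1B share between bulls and calves was 71.5 percentage points, and 61.9 to 79.3 with 1 library left out. With 3 animals in each group and no counts, the counting error of low values such as those of REC8 was not computed. Clean reads for each library, which the paper lists, were not used.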
